A study of Rattus norvegicus with 12 samples.

Results

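Hypothalamic tissue taken 1 h after acute corticosterone was compared with tissue from sham-operated rats, as 4 of the 12 RNA sequencing libraries of the series, 2 in each group, chosen by their labels. The 1 h acute group is labelled as acute corticosterone with sampling at 1 h, and the sham group as the sham operation for adrenalectomy (ADX), the removal of the adrenal glands. All animals were wild-type male Wistar rats aged 12 weeks, and the tissue was the hypothalamic region that holds the paraventricular nucleus (PVH), dissected on ice. A pair of further groups of 2 libraries each serve below as side comparisons: adrenalectomised rats supplemented with corticosterone (supplemented ADX), and rats sampled 3 h after acute corticosterone (3 h acute). The labels give neither the dose nor the route, name no vehicle group, do not say whether the acutely treated rats still had their adrenal glands, and do not say whether a library is 1 animal or a pool. The p-values below therefore measure the spread between libraries, and handling, injection and surgery cannot be told apart from corticosterone in this comparison.

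Corticosterone, the chief glucocorticoid hormone of rats, crosses into the brain, binds the glucocorticoid receptor and the mineralocorticoid receptor, and the bound receptors move to the nucleus, where they raise or lower the transcription of target genes, some of them within the first hour. In the PVH this hormone acts back on the neurons that make corticotropin-releasing hormone and vasopressin, which start the pituitary and adrenal response to stress. Immediate early genes, such as those of the Fos, Egr and Nr4a families, are transcribed briefly after a neuron or other cell is stimulated and encode mostly transcription factors.

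The 1 h acute libraries held 32201855 and 17674161 fragments, the second being the smallest of the series, and the sham libraries 25724234 and 27797278. Levels are given in CPM, the fragments of a gene scaled to library size and composition (not to gene length), and fold changes as log2 of 1 h acute over sham. Transcripts of the PVH were present in all 4 libraries, with its transcription factor Sim1 at 52.4 and 54.0 CPM in 1 h acute libraries and 39.9 and 49.65 CPM in sham libraries. Markers of the neighbouring thalamus were also present and unequal between the groups. Their mean level over 16 markers was 5.03 and 4.27 log2 CPM in the 1 h acute libraries, against 5.46 and 6.03 log2 CPM in the sham libraries. The second 1 h acute library had the lowest and the second sham library the highest value of the 12 libraries. Every result below was therefore also computed with this thalamus score as a covariate and without each library.

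Of 17310 gene identifiers, 12856 were abundant enough to be tested, and 1641 of them (12.8%) were called at an adjusted p under 0.05 by edgeR's quasi-likelihood test. Of these 715 were higher in 1 h acute tissue (5.56% of the genes tested) and 926 were lower (7.2%). The changes were small, with a median log2 fold change of 0.29 among the higher genes and -0.32 among the lower ones, and 56 genes changed by at least 2-fold, 17 of them higher. The groups did not overlap for any called gene, but neither did they for 56.5% of all genes tested. The count rests on particular libraries: it was 138 without the second sham library, 338 without the second 1 h acute library, 1446 without the first sham library and 2163 without the first 1 h acute library. With the 4 libraries fitted alone it was 23 (0.179%), and a fit that held the thalamus score gave 1, the clock gene Per2. A set of 112 genes, 51 of them higher, was called with all libraries and without each of the 4 in turn.

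**Figure D1:**
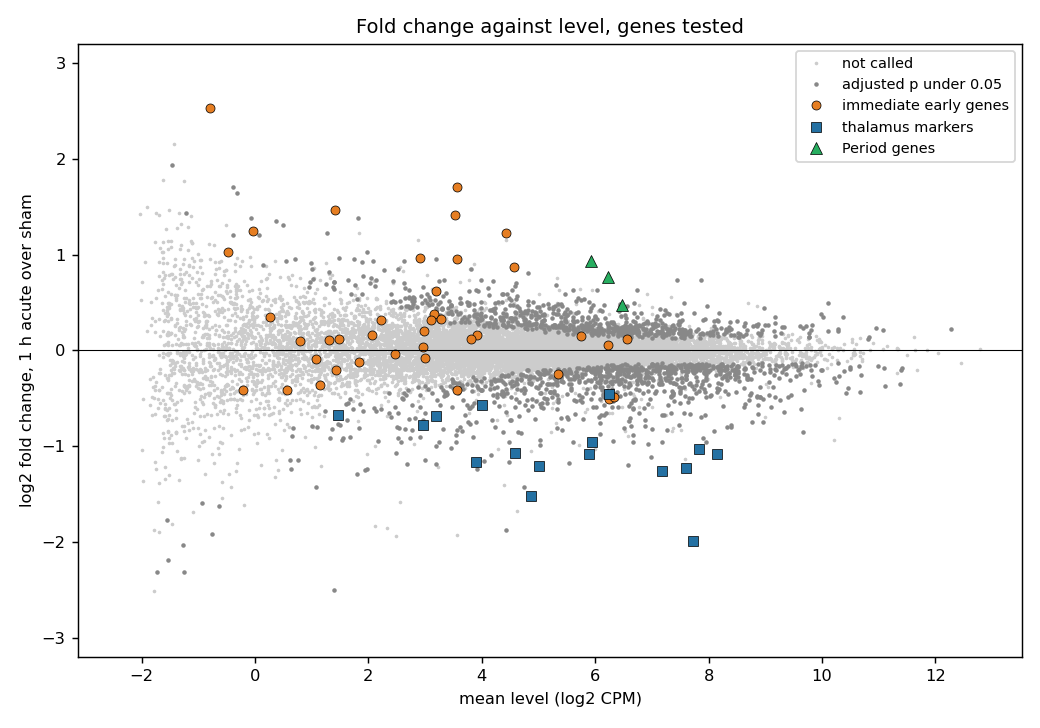
Each point is 1 tested gene, with its mean level in log2 CPM on the x axis and its log2 fold change of 1 h acute over sham on the y axis; dark grey points passed the test, and 2 genes lie beyond the axis limit of 3.2. The Period genes sit above zero at high levels, most immediate early genes above zero, and the 16 thalamus markers all below zero.

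The Period genes rose. They encode repressor proteins of the circadian clock, and Per1 is also a rapid direct target of the glucocorticoid receptor. Per1 had 82.5 and 87.4 CPM in 1 h acute libraries, against 40.2 and 48.7 CPM in sham libraries. Both 1 h acute libraries stood above both sham libraries, and the rise was 1.91-fold (log2 0.93 ± 0.08, SE; adjusted p = 1.3e-04, edgeR). Per2 had 91.0 and 95.6 CPM in 1 h acute libraries, against 54.8 and 54.4 CPM in sham libraries. The groups were far apart beside the small spread within each, and Per2 rose 1.71-fold (log2 0.77 ± 0.05; adjusted p = 4.0e-06, edgeR). Per3 was at 95.2 and 104.7 CPM in 1 h acute libraries, against 73.8 and 70.4 CPM in sham libraries, a rise of 1.38-fold without overlap. All 3 genes were called without each library in turn and in the fit of the 4 libraries alone. With the thalamus score as a covariate the log2 fold change was 1.01 for Per1 (adjusted p = 0.0506), 0.68 for Per2 (adjusted p = 0.0206) and 0.30 for Per3 (adjusted p = 0.761).

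Promoter sequences are shown for members of the groups that rose here, the Period genes and the immediate early genes, because members of both are known targets of the factor CREB, which binds the cyclic AMP response element. RefSeq promoters of the rat build GRCr8, from 250 bases before to 50 bases after the annotated start, were found for 10 of 12 genes looked up, and no window was found for Fos and Nr4a3. Capitals mark TGACG, the core of the cyclic AMP response element, on either strand (CGTCA is the same core read from the other strand). The windows lie at chr10:54304126-54304425 (plus strand) for Per1, chr9:99496944-99497243 (minus strand) for Per2, chr7:134259888-134260187 (plus strand) for Nr4a1 and chr20:9958597-9958896 (minus strand) for Sik1.
Per1: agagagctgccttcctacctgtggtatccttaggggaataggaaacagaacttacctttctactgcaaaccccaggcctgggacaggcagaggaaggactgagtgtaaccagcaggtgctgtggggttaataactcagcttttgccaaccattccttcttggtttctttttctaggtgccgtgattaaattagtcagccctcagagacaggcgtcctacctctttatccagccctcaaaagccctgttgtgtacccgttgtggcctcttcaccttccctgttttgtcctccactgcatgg
Per2: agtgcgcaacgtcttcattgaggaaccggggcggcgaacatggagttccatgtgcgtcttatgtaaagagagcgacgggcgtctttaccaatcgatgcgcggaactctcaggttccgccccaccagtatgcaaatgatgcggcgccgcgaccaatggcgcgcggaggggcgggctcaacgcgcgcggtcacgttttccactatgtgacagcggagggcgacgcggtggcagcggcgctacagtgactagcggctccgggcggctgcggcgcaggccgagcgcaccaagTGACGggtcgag
Nr4a1: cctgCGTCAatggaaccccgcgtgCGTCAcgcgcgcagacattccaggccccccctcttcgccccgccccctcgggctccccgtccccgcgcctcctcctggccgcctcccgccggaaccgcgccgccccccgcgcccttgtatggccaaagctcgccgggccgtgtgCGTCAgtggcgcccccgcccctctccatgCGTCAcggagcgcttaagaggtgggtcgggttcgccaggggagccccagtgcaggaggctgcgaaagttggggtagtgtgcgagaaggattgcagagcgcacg
Sik1: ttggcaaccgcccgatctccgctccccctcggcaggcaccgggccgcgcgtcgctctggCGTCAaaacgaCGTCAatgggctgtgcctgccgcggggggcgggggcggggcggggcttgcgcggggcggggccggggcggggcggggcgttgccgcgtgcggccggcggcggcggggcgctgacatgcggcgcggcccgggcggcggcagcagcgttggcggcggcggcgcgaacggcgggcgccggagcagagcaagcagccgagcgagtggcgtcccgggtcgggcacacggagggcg
The core occurred 4 times in the Nr4a1 window, 2 times in that of Sik1, 1 time in that of Per2 and 0 times in that of Per1. Among the windows not printed, Egr1 and Maff held 2 each, Per3 and Junb 1 each, and Fosb and Fosl2 none. The same 5 letters were in 21.2% of 33469 rat promoter windows of this length, in 30.9% of those of the tested genes and in 26.1% of the 544 windows of genes that rose. The longer palindrome TGACGTCA, which holds the core on both strands, was found in the Maff window alone among the 10. The 2 matches counted for Maff are the 2 strands of that 1 palindrome. The CArG box, which serum response factor binds, was found in the Egr1 window, where it occurred 2 times, against 1.64% of all windows with a match. A full palindromic glucocorticoid response element (AGAACA and TGTTC with any 3 bases between them) was in none of the 10 windows, and in 0.0388% of all windows. These are matches of letters within 300 bases, and sites farther away were not searched.

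Beyond the Period genes, the clock genes that were called were mostly lower. Of 19 clock genes tested, a list that includes the 3 Period genes, 4 rose and 5 fell. The share called was 47.4%, against 12.8% of all genes, and the median log2 fold change was -0.06. Apart from the Period genes only Cry1, a repressor that partners the Period proteins, rose, with a log2 fold change of 0.27. Npas2, which like Clock pairs with Arntl to activate clock genes, had 55.5 and 46.7 CPM in 1 h acute libraries, against 76.6 and 90.7 CPM in sham libraries. Both 1 h acute values lay below both sham values, and Npas2 fell by 0.70 on the log2 scale (adjusted p = 0.00724, edgeR). The clock repressor Nr1d1 was at 65.3 and 78.6 CPM in 1 h acute libraries, against 94.9 and 101.1 CPM in sham libraries, and fell by 0.46 on the log2 scale. Its log2 difference from supplemented ADX, at 74.3 and 68.1 CPM, was 0.00 ± 0.08 (adjusted p = 0.988, edgeR). Bhlhe40, another repressor of the clock, fell by 0.49, Arntl by 0.28 and Cry2 by 0.14. A fit that held the thalamus score called 1 of the 19 clock genes, Per2 (5 at an unadjusted p under 0.05). Without the second sham library 4 clock genes were called, 3 higher and 1 lower, and without the second 1 h acute library 6 were called, 3 in each direction. The output gene Dbp was at 46.4 and 50.3 CPM in 1 h acute libraries and 46.7 and 54.6 CPM in sham libraries, values that overlap and did not pass the test (adjusted p = 0.544, edgeR). The hour of sampling is not given in the labels, so hour of day was not tested.

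**Figure D2:**
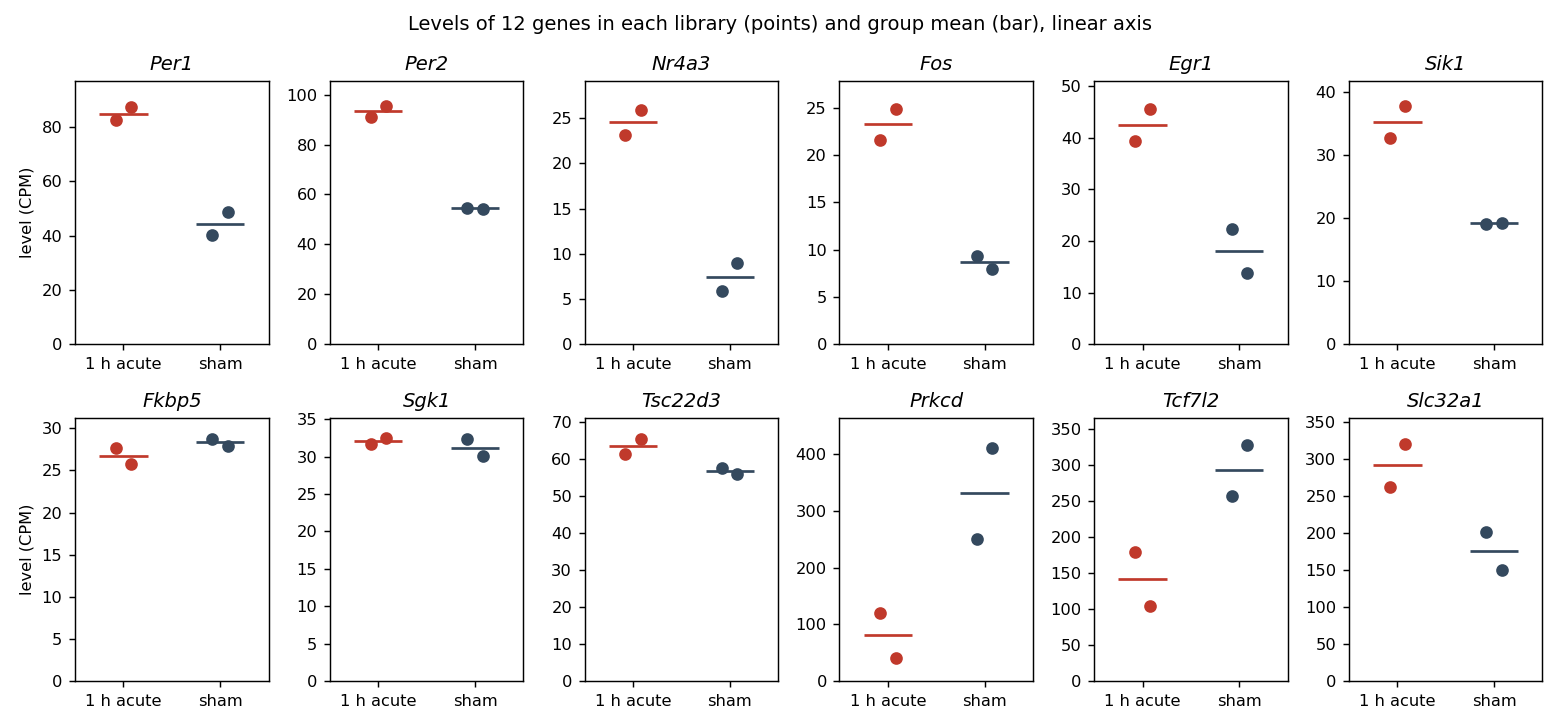
Levels of 12 genes in CPM on linear axes from 0, with 1 point for each library and a bar at the group mean, 1 h acute in red and sham in dark blue. Per1, Per2, Nr4a3, Fos, Egr1, Sik1 and Slc32a1 are higher and Prkcd and Tcf7l2 lower in both 1 h acute libraries, while the glucocorticoid-responsive genes Fkbp5, Sgk1 and Tsc22d3 differ little and did not pass the test.

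Immediate early genes were in part higher at 1 h. Of 39 tested, 9 rose and 4 fell (33.3% called, against 12.8% of all genes), with a median log2 fold change of 0.15. Nr4a3, an orphan nuclear receptor, had 23.2 and 25.95 CPM in 1 h acute libraries, against 5.88 and 8.93 CPM in sham libraries. The lower 1 h acute value was above the higher sham value by more than the spread within either group, and Nr4a3 rose 3.28-fold (log2 1.71 ± 0.21; adjusted p = 0.00345, edgeR). Fos, a subunit of the AP-1 transcription factor, had 21.55 and 24.9 CPM in 1 h acute libraries, against 9.37 and 7.98 CPM in sham libraries. Its groups did not overlap (log2 1.41 ± 0.34; adjusted p = 0.0421, edgeR), but the call was lost without each of the 4 libraries, with adjusted p between 0.0754 and 0.227. Of 13 alternatives 4 called Fos and 9 did not. The fit of the 4 libraries alone (adjusted p = 0.00714, edgeR) and DESeq2 (adjusted p = 0.00343, DESeq2) called it. The fit with the thalamus score did not (log2 0.93, adjusted p = 0.998, edgeR). Egr1, a zinc finger factor used as a marker of neuronal activity, had 39.4 and 45.6 CPM in 1 h acute libraries, against 22.4 and 13.8 CPM in sham libraries. The sham libraries differed more from each other than the 1 h acute libraries did, and Egr1 rose 2.35-fold (log2 1.23 ± 0.23; adjusted p = 0.0166, edgeR). The call of Egr1 was lost without the second 1 h acute library (adjusted p = 0.097, edgeR). Its log2 fold change fitted beside the thalamus score was 0.62 (adjusted p = 0.998, edgeR) and 0.13 with a score of anterior hypothalamus markers in its place.

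Nr4a1, a relative of Nr4a3, had 18.2 and 20.0 CPM in 1 h acute libraries, against 10.4 and 9.33 CPM in sham libraries, without overlap (log2 0.95 ± 0.16; adjusted p = 0.00513, edgeR). Sik1, a kinase that restrains the coactivators of the cyclic AMP response factor CREB, had 32.7 and 37.8 CPM in 1 h acute libraries, against 19.1 and 19.25 CPM in sham libraries. The sham values were nearly equal and both lay well below the 1 h acute values (log2 0.87 ± 0.12; adjusted p = 0.0024, edgeR). The AP-1 subunits Fosb, Fosl2 and Junb rose by log2 1.47, 0.96 and 0.62, and the small Maf protein gene Maff, at about 1 CPM, by 1.25. The 4 members that fell were Klf6 (log2 -0.51), Bhlhe40 (log2 -0.49), Btg2 (log2 -0.41) and Homer1 (log2 -0.25). Arc, a synaptic gene that neurons transcribe on activation, was at 11.3 and 9.43 CPM in 1 h acute libraries and 8.55 and 7.61 CPM in sham libraries, and did not pass the test (adjusted p = 0.17, edgeR). Npas4, which responds to calcium entry in neurons, was at 1.94 and 1.77 CPM in 1 h acute libraries and 3.06 and 1.79 CPM in sham libraries (adjusted p = 0.501, edgeR), and neither Jun nor Nr4a2 passed. Without the second sham library 4 members were called, all higher, and without the second 1 h acute library 7, of which 5 were higher, while a fit that held the thalamus score called 0 (7 at an unadjusted p under 0.05, and a median log2 fold change of 0.15). In whole tissue a change in the number of cells that express a gene and a change in the RNA per cell cannot be told apart.

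Feedback inhibitors of MAP kinase signalling, which that pathway induces, included 4 members that rose and none that fell among 17 tested (23.5% called, against 12.8% of all genes; median log2 fold change -0.06). Spry4, an inhibitor of receptor tyrosine kinase signalling, had 31.2 and 30.7 CPM in 1 h acute libraries, against 18.5 and 19.7 CPM in sham libraries. Both pairs were tight and did not overlap (log2 0.70 ± 0.08; adjusted p = 4.5e-04, edgeR), and the call held without each library in turn. The phosphatase gene Dusp4 rose by log2 0.72, and the Sprouty-related inhibitors Spred3 and Spred2 by 0.59 and 0.22. The count was 1 without the second sham library and 3 without the second 1 h acute library.

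Few of the genes that glucocorticoids induce in many tissues changed. Of 45 tested, 4 rose and 2 fell (13.3% called, near the 12.8% of all genes), with a median log2 fold change of 0.12 against -0.003 for all genes. Fkbp5, a chaperone that lowers the affinity of the glucocorticoid receptor, had 27.7 and 25.7 CPM in 1 h acute libraries, against 28.8 and 27.85 CPM in sham libraries. All 4 values lay close together, and the difference of log2 -0.08 ± 0.09 did not pass the test (adjusted p = 0.628, edgeR). Sgk1, a kinase of ion transport, had 31.7 and 32.5 CPM in 1 h acute libraries, against 32.3 and 30.0 CPM in sham libraries, and the groups overlapped (log2 0.04 ± 0.13). Tsc22d3, the glucocorticoid-induced leucine zipper, was at 61.4 and 65.5 CPM in 1 h acute libraries, against 57.7 and 55.95 CPM in sham libraries, without overlap but below the threshold (log2 0.16 ± 0.08; adjusted p = 0.258, edgeR). Zbtb16, Klf9, Nfkbia, Cdkn1a and Dusp1 did not pass either, with log2 fold changes between -0.27 and 0.42.

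The 4 members that rose were Per1, Ddit4, Nedd9 and Tob2. Ddit4, an inhibitor of the growth kinase mTOR, had 42.8 and 54.4 CPM in 1 h acute libraries, against 33.9 and 37.95 CPM in sham libraries (log2 0.42 ± 0.12; adjusted p = 0.0434, edgeR). The call of Ddit4 held without 1 of the 4 libraries and was lost without each of the others. Nedd9, an adhesion scaffold, rose by log2 0.35 and Tob2, an antiproliferative factor, by 0.30. The 2 that fell were the small GTPase genes Rhob and Rasd1. Rhob had 339.2 and 281.0 CPM in 1 h acute libraries, against 429.2 and 486.4 CPM in sham libraries, and fell by 0.56 on the log2 scale (adjusted p = 0.00327, edgeR) with no overlap. Rasd1, named for its induction by dexamethasone, fell by 0.59, and its log2 value with the thalamus score as a covariate was 0.01. Of the 45 genes 2 were called without the second sham library, and 2 without the second 1 h acute library.

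Among 20 genes of corticosteroid and corticotropin-releasing hormone signalling, 2 rose and 3 fell (25% called, against 12.8% of all genes; median log2 fold change -0.04). The glucocorticoid receptor gene Nr3c1 had 207.5 and 189.7 CPM in 1 h acute libraries, against 220.8 and 236.2 CPM in sham libraries. The groups did not overlap, and Nr3c1 fell by 0.20 on the log2 scale (adjusted p = 0.0439, edgeR), a call that was lost in 10 of 13 alternatives. The mineralocorticoid receptor gene Nr3c2 was at 46.1 and 48.7 CPM in 1 h acute libraries and 48.4 and 49.0 CPM in sham libraries, with overlap (log2 -0.04 ± 0.06). Hsd11b1, whose enzyme regenerates active corticosterone inside cells, fell by 0.59. Crhr2, a receptor for the urocortins, was at 5.15 and 4.38 CPM in 1 h acute libraries, against 2.39 and 2.71 CPM in sham libraries, and rose by log2 0.92. The corepressor gene Ncor1 fell by 0.14. Without the second sham library 0 of the 20 were called, and 3 were at an unadjusted p under 0.05, while 1 was called without the second 1 h acute library.

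The releasing hormones of the PVH did not pass the test. Crh, which drives the release of pituitary corticotropin, had 18.55 and 15.2 CPM in 1 h acute libraries, against 10.5 and 13.5 CPM in sham libraries. The groups did not overlap, but the difference of log2 0.51 ± 0.21 missed the threshold (adjusted p = 0.157, edgeR). Avp, the vasopressin gene, had 134.5 and 123.7 CPM in 1 h acute libraries, against 95.2 and 103.1 CPM in sham libraries (log2 0.38 ± 0.12; adjusted p = 0.071, edgeR). Oxt, the oxytocin gene, had 312.6 and 276.5 CPM in 1 h acute libraries, against 220.6 and 383.2 CPM in sham libraries, where the sham values enclosed those of the 1 h acute group. Trh, the thyrotropin-releasing hormone gene, differed by log2 0.29 ± 0.13 (adjusted p = 0.206, edgeR).

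Of 41 neuropeptide genes in the files 30 were abundant enough to test, and of these 5 rose and 1 fell (20% called, against 12.8% of all genes), with a median log2 fold change of 0.30. Gal, the galanin gene, had 16.2 and 19.7 CPM in 1 h acute libraries, against 10.6 and 9.04 CPM in sham libraries, without overlap (log2 0.85 ± 0.12; adjusted p = 0.00138, edgeR). Penk, which encodes the enkephalins, had 71.5 and 79.2 CPM in 1 h acute libraries, against 53.4 and 43.95 CPM in sham libraries (log2 0.63 ± 0.08; adjusted p = 0.00203, edgeR). Both were called without each library in turn, while of the whole list 4 were called without the second sham library and 2 without the second 1 h acute library. Fitted beside the thalamus score, Gal and Penk had log2 fold changes of 0.49 and 0.32 (adjusted p = 0.998 for each, edgeR). None of the 30 was called in that fit, and their median was 0.07. Against supplemented ADX the log2 differences were 0.24 for Gal (adjusted p = 0.314, edgeR) and 0.14 for Penk (adjusted p = 0.438, edgeR). The list's median there was 0.05, again with none called. Relative to sham, Pmch, a product of lateral hypothalamic neurons, rose by log2 0.44, the dynorphin gene Pdyn by 0.41 and the granin gene Scg2 by 0.14. Vip, made in the suprachiasmatic nucleus and cortex, was at 1.23 and 0.28 CPM in 1 h acute libraries, against 3.45 and 6.44 CPM in sham libraries, and fell by 2.50 on the log2 scale (adjusted p = 0.0186, edgeR).

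**Figure D3:**
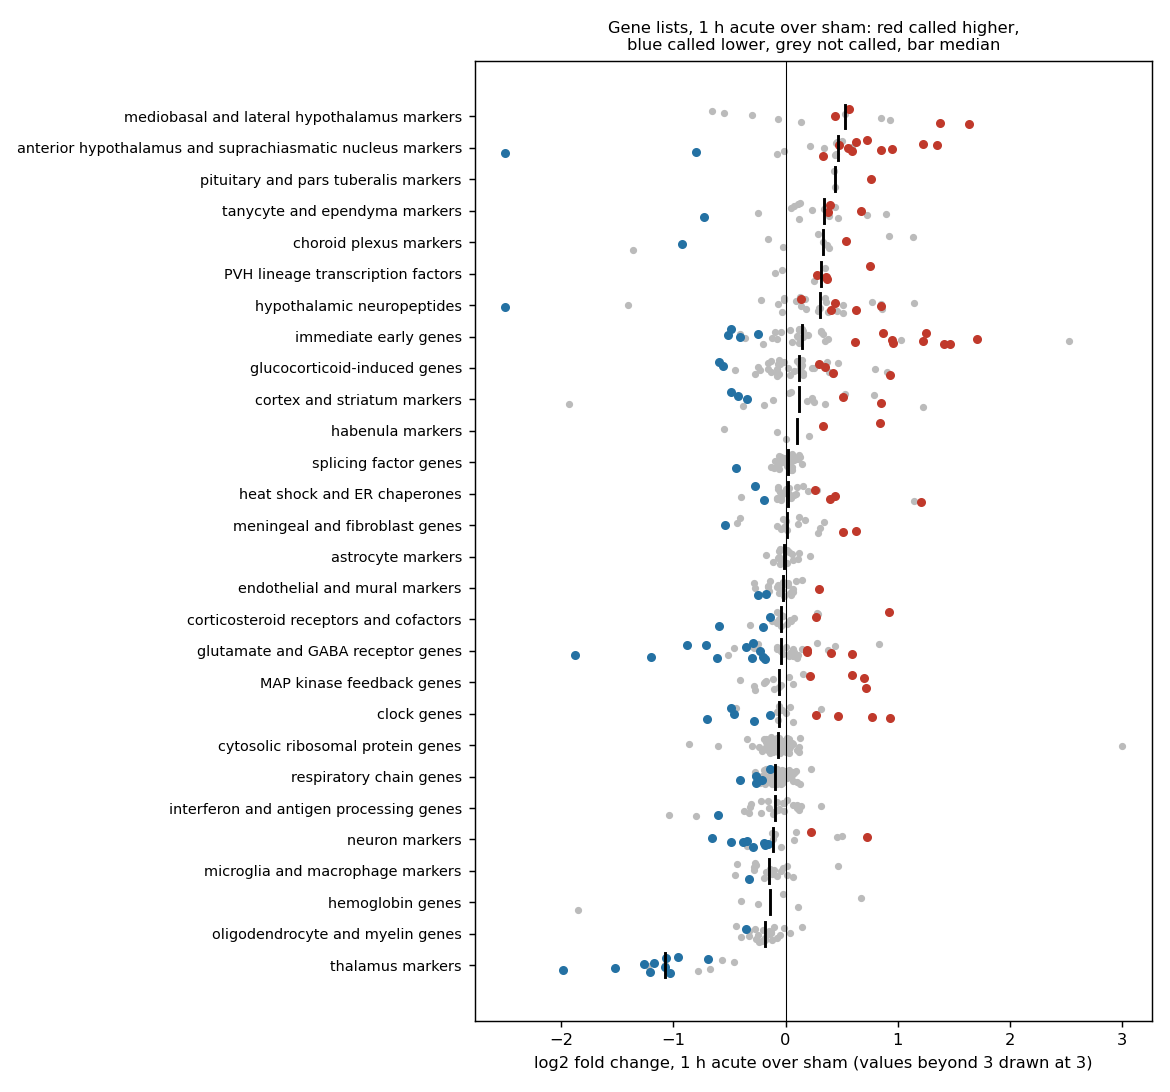
Log2 fold change of 1 h acute over sham for the tested members of 28 gene lists, 1 point a gene, red where called higher, blue where called lower and grey where not called, with a black bar at the list's median and values beyond 3 drawn at 3. The thalamus markers lie below zero with a median of -1.07, and the lists of anterior, mediobasal and lateral hypothalamus lie highest, with medians of 0.47 and 0.53.

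Markers of brain regions differed between the groups more than most lists. The log2 fold change was below 0 for all 16 thalamus markers, and 10 of them fell (62.5% called, against 7.2% of all genes called lower), with a median of -1.07. Prkcd, a kinase gene of thalamic relay neurons, had 120.6 and 40.98 CPM in 1 h acute libraries, against 250.8 and 411.5 CPM in sham libraries. The groups did not overlap, the libraries of a group differed widely, and Prkcd was 3.98-fold lower (log2 -1.99 ± 0.47; adjusted p = 0.0444, edgeR). Tcf7l2, a transcription factor of the thalamus and habenula, had 179.6 and 104.4 CPM in 1 h acute libraries, against 257.1 and 327.2 CPM in sham libraries (log2 -1.03 ± 0.24; adjusted p = 0.0413, edgeR). The other 8 that fell were Ramp3, Synpo2, Lef1, Nexn, Ntng1, Rgs16, Vav3 and Lhx9, with log2 fold changes from -1.52 to -0.69. The summed level of the list was 1049.1 and 565.6 CPM in 1 h acute libraries, against 1590.9 and 2170.0 CPM in sham libraries, and no marker of it was at 0 fragments. Without the second sham library 0 of the 16 were called, with 10 at an unadjusted p under 0.05, and without the second 1 h acute library 7 were called. DESeq2 called 14 of the 16. The 6 habenula markers tested did not follow, with 2 called higher (Gpr139 and Lrrc55) and none lower, but their levels were low. They summed to 23.2 and 29.3 CPM in 1 h acute libraries, against 22.1 and 19 CPM in sham libraries. With the score of anterior hypothalamus markers as a covariate the log2 values were -0.21 for Gpr139 and -0.11 for Lrrc55.

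**Figure D4:**
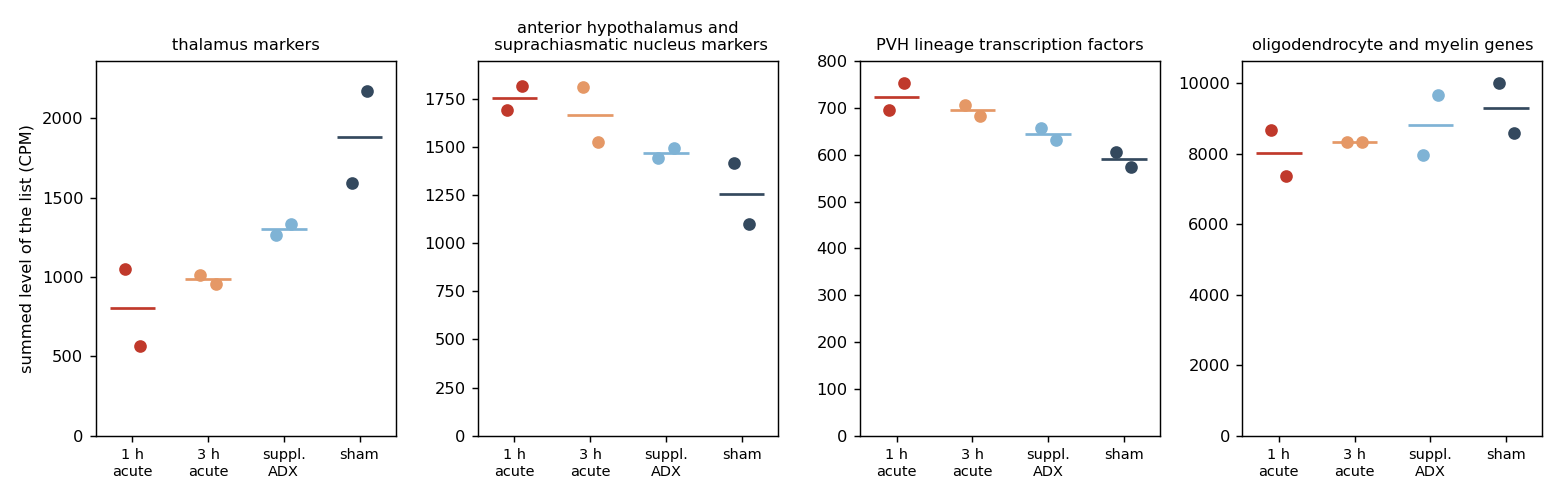
Summed level in CPM, on linear axes from 0, of 4 marker lists in the libraries of the 1 h acute, 3 h acute, supplemented ADX and sham groups, 1 point for each library and a bar at the group mean. Thalamus markers are lowest in the 1 h acute group (1049.1 and 565.6) and highest in the sham group (1590.9 and 2170.0), and the anterior hypothalamus and PVH lists run the other way.

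Some marker genes of hypothalamic regions were higher. Of 22 markers of the anterior hypothalamus and suprachiasmatic nucleus, 10 rose and 2 fell (54.5% called, against 12.8% of all genes, of which 5.56% were called higher and 7.2% lower), with a median log2 fold change of 0.47. The count was 1 without the second sham library and 2 without the second 1 h acute library, all higher. Their summed level was 1690.8 and 1817.3 CPM in 1 h acute libraries, against 1413.5 and 1099.2 CPM in sham libraries. Dlx2, a factor of developing inhibitory neurons, had 7.19 and 6.71 CPM in 1 h acute libraries, against 3.92 and 3.81 CPM in sham libraries. The pairs were tight, did not overlap and gave a rise of log2 0.85 ± 0.13 (adjusted p = 0.00266, edgeR). Hmx2, Hmx3, Dlx1, Dlx5, Isl1 and Esr1, the oestrogen receptor gene, also rose, by log2 0.56 to 1.35. The 2 members that fell were Vip, made in the suprachiasmatic nucleus and cortex, and Vipr2, a receptor for its peptide. Their log2 fold changes were -2.50 and -0.80, so the list did not move as a whole. Slc32a1, the vesicular transporter of GABA, had 262.8 and 321.3 CPM in 1 h acute libraries, against 201.5 and 150.4 CPM in sham libraries (log2 0.73 ± 0.17; adjusted p = 0.039, edgeR). Slc17a6, the vesicular glutamate transporter of thalamic and hypothalamic neurons, had 397.2 and 309.5 CPM in 1 h acute libraries, against 517.2 and 605.3 CPM in sham libraries (log2 -0.66 ± 0.11; adjusted p = 0.00984, edgeR).

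Of 8 PVH lineage factors 4 rose and none fell (50% called, against 12.8% of all genes), with 3 called without the second sham library and 1 without the second 1 h acute library. Their median log2 fold change was 0.32, with a summed level of 695.1 and 753.3 CPM in 1 h acute libraries, against 606.9 and 573.1 CPM in sham libraries. Pou3f2, required for the PVH neuroendocrine neurons, had 96.8 and 105.9 CPM in 1 h acute libraries, against 76.5 and 81.4 CPM in sham libraries (log2 0.36 ± 0.05; adjusted p = 0.00188, edgeR). Otp rose by log2 0.37, Arnt2 by 0.28 and Uncx by 0.75, while Sim1, with a log2 fold change of 0.25, did not pass (adjusted p = 0.0695, edgeR). Among 13 markers of the mediobasal and lateral hypothalamus 4 rose (30.8% called, against 12.8% of all genes), among them Fezf1, a factor of the ventromedial nucleus. Of these 13, 0 were called without the second sham library (4 at an unadjusted p under 0.05) and 2 without the second 1 h acute library. Fezf1 had 5.28 and 5.43 CPM in 1 h acute libraries, against 2.00 and 2.09 CPM in sham libraries, a rise of 2.61-fold with tight pairs (adjusted p = 0.00567, edgeR). With the thalamus score in the fit none of the genes of these lists was called (3, 3 and 5 at an unadjusted p under 0.05), and the medians were 0.24 for the anterior list, 0.35 for the PVH factors and -0.58 for the mediobasal and lateral list. The parts of tissue composition and of corticosterone in the calls that moved with these markers cannot be told apart in this design.

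Genes of neuronal structure and transmission were lower in part. Of 20 neuron markers 2 rose (Slc32a1 and the noncoding Snhg11) and 8 fell (50% called, against 12.8% of all genes), with a median log2 fold change of -0.12. Leaving out the second sham library left 3 called, and leaving out the second 1 h acute library left 4, all of them lower. Snap25, a synaptic vesicle fusion protein, had 1115.2 and 1021.3 CPM in 1 h acute libraries, against 1310.4 and 1308.4 CPM in sham libraries (log2 -0.29 ± 0.05; adjusted p = 0.00378, edgeR). The neurofilament genes Nefl, Nefm and Nefh fell by 0.49, 0.38 and 0.34. Of 40 glutamate and GABA receptor genes 4 rose and 11 fell (37.5% called, against 12.8% of all genes). Leaving out the second sham library left 0 of the 40 called (17 at an unadjusted p under 0.05), and leaving out the second 1 h acute library left 3, all lower. Gabrd, the delta subunit of extrasynaptic GABA-A receptors, had 12.2 and 4.99 CPM in 1 h acute libraries, against 26.05 and 42.2 CPM in sham libraries. The difference between libraries of a group was large, as it was for Prkcd, and Gabrd fell by 1.88 on the log2 scale (adjusted p = 0.0226, edgeR). Its common partner Gabra4 fell by 1.20, the metabotropic glutamate receptor genes Grm4 and Grm2 by 0.88 and 0.71, and the GABA-B receptor gene Gabbr2 by 0.61. With the thalamus score as a covariate the log2 values were -0.47 for Gabrd and -0.18 for Gabra4, and none of the 40 was called (3 at an unadjusted p under 0.05). Over the 4 libraries the values of Gabrd stood in the same order as the summed thalamus markers given above. Those of Snap25 did not, being nearly equal in the sham libraries. The part of tissue composition in these differences was not tested.

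Few astrocyte, myelin, microglial and vascular genes were called. None of 16 astrocyte markers was called by edgeR or DESeq2 (1 at an unadjusted p under 0.05, median log2 fold change -0.01). Of 24 oligodendrocyte and myelin genes 1 fell (Bcas1, 4.17% called), yet 22 had a log2 fold change below 0 (median -0.18). DESeq2 called 4 of the 24, and 7 were at an unadjusted p under 0.05 in edgeR. Of 20 microglial markers 1 fell (Cx3cr1, 5% called), and 16 were below 0 (median -0.14). DESeq2 called 2 of the 20, and 5 were at an unadjusted p under 0.05 in edgeR. The summed myelin list was 8687.1 and 7379.5 CPM in 1 h acute libraries, against 9999.1 and 8580.8 CPM in sham libraries, which overlap. Of 25 endothelial and mural genes 12% were called, near the 12.8% of all genes. Vwf, for von Willebrand factor, rose by log2 0.30, and the vascular endothelial growth factor receptor genes Kdr and Flt1 fell by 0.25 and 0.17. Among 17 tanycyte and ependyma genes (median log2 fold change 0.34; 23.5% called, against 12.8% of all genes), 3 rose, among them the ciliogenesis factor Foxj1 and Ak7, by log2 0.67 and 0.40, and Fabp7 fell. Fabp7, a fatty acid binding protein of radial glia and tanycytes, had 15.3 and 17.8 CPM in 1 h acute libraries, against 25.1 and 29.1 CPM in sham libraries (log2 -0.73 ± 0.10; adjusted p = 9.5e-04, edgeR). Of the 17 genes 1 was called without the second sham library and 2 without the second 1 h acute library. The log2 difference of Fabp7 from supplemented ADX was 0.01 ± 0.10 (adjusted p = 0.969, edgeR). Of 17 meningeal genes the collagen genes Col3a1 and Col1a2 rose and Ptgds fell (17.6% called, against 12.8% of all genes). Of 11 choroid plexus genes Prlr rose and Otx2 fell (18.2% called, against the same 12.8%, with a median log2 fold change of 0.33). Of 3 pituitary genes Tbx19 rose (33.3% called). None of 6 hemoglobin genes was called by edgeR, 1 was at an unadjusted p under 0.05, and DESeq2 called 1.

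Of 30 chaperone genes 4 rose and 2 fell (20% called, against 12.8% of all genes; median log2 fold change 0.02). None was called without the second sham library (6 at an unadjusted p under 0.05) or without the second 1 h acute library (7 at an unadjusted p under 0.05). The stress-inducible Hspa1a had 1.48 and 1.83 CPM in 1 h acute libraries, against 0.63 and 0.77 CPM in sham libraries, without overlap (log2 1.21 ± 0.29; adjusted p = 0.0157, edgeR). Its near-identical copy Hspa1b was at 25.2 and 47.1 CPM in 1 h acute libraries, against 17.9 and 13.8 CPM in sham libraries, and did not pass (adjusted p = 0.0706, edgeR). How the authors' counting split fragments between these copies is not known, so the values of each are uncertain. The cochaperone genes Bag3 and Dnajb1 rose by log2 0.44 and 0.40, while the stress factor Atf4 and the chaperone gene Hsph1 fell by 0.27 and 0.19. Of 82 respiratory chain genes 6 fell, among them Cox7a2 and Cox5a, and none rose (median log2 fold change -0.09). That is 7.32% called, near the 7.2% of all genes that were called lower, and DESeq2 called 1 of the 82. None of 76 ribosomal protein genes was called by edgeR (median log2 fold change -0.07), 12 were at an unadjusted p under 0.05, and DESeq2 called 2. Of 26 interferon and antigen processing genes Ifit2 fell, by 0.60 (3.85% called). Of 18 cortex and striatum markers 2 rose and 3 fell (27.8% called, against 12.8% of all genes). Of 29 splicing factor genes (3.45% called) Hnrnpc, which binds nascent RNA, was called lower. It had 52.4 and 48.0 CPM in 1 h acute libraries, against 69.55 and 66.8 CPM in sham libraries (log2 -0.44 ± 0.07; adjusted p = 0.00319, edgeR). Rn18s, the 18S ribosomal RNA left after selection of messenger RNA, was at 650.5 and 563.2 CPM in 1 h acute libraries and 1046.0 and 1287.5 CPM in sham libraries (adjusted p = 0.233, edgeR).

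**Figure D5:**
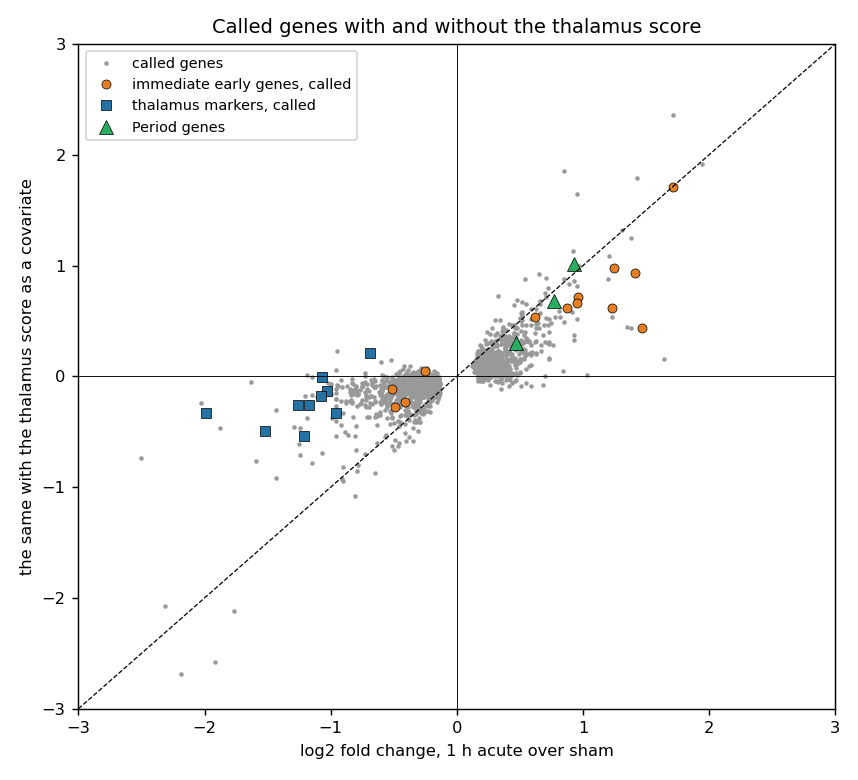
Log2 fold change of 1 h acute over sham for the called genes without a covariate (x axis) and in the fit that holds the thalamus score (y axis), with a dashed line where both are equal. Per1, Per2 and Nr4a3 lie near the line, and the thalamus markers, which make up the score, lie near zero on the y axis.

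Adding the thalamus score shrank most values and widened their errors. Of the 1641 called genes 1536 kept their sign, and the median size of their log2 fold change was 0.12 with the score and 0.30 without it. Their median SE was 0.11 with the score and 0.07 without it. At an unadjusted p under 0.05 the fit with the score held 527 genes, and the fit without it 3521. Nr4a3 had a log2 fold change of 1.71 in both, with an SE of 0.41 and an adjusted p of 0.774 (edgeR) with the score. Of the 108 named genes that were called, 74 had a log2 fold change smaller by over 1.5 times or of the other sign with the score, and 2 one larger by over 1.5 times. Egr1, Fos, Fosb and Penk had log2 fold changes of 0.62, 0.93, 0.44 and 0.32 with the score, against 1.23, 1.41, 1.47 and 0.63 without it. Rhob, Pcsk2 and Vip had -0.19, -0.19 and -0.74 with the score, against -0.56, -0.47 and -2.50 without it. Among the genes that moved little, the values for Spry4, Dlx2, Ecel1 and Gpr101 were 0.75, 0.88, 0.45 and 0.44 with the score, against 0.70, 0.85, 0.46 and 0.48 without it. Ecel1, a membrane peptidase, had 108.9 and 108.3 CPM in 1 h acute libraries, against 78.65 and 79.2 CPM in sham libraries, without overlap. Gpr101, an orphan receptor of the hypothalamus, had 98.5 and 105.3 CPM in 1 h acute libraries, against 71.0 and 74.5 CPM in sham libraries. Both were called without each library in turn and in the fit of the 4 libraries alone. The score and the group are nearly aligned over these 4 libraries, since both 1 h acute values lie below both sham values, so that the fit separates them through the spread of the score within groups.

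Supplemented ADX is a second comparator, which, per the file headers, the authors processed in the same run as the acute groups, while sham was in another run. It shares the 1 h acute libraries with the comparison above, so its values are not independent of it. Of the 12856 genes 6 were called (0.0467%), 5 higher (0.0389%) and 1 lower (0.00778%) in 1 h acute tissue. Per1 had 82.5 and 87.4 CPM in 1 h acute libraries, against 48.7 and 50.5 CPM in supplemented ADX libraries (log2 0.77 ± 0.08; adjusted p = 0.00174, edgeR). Per2 had 91.0 and 95.6 CPM in 1 h acute libraries, against 71.4 and 68.8 CPM in supplemented ADX libraries (log2 0.41 ± 0.05; adjusted p = 0.00588, edgeR). The groups did not overlap for either gene. Fam46a, which encodes a poly(A) polymerase, the imprinted zinc finger gene Zim1 and the kinase gene Map3k13 rose by log2 0.59, 0.50 and 0.42 (adjusted p = 0.034 for each, edgeR). Hnrnpc had 52.4 and 48.0 CPM in 1 h acute libraries, against 66.5 and 75.4 CPM in supplemented ADX libraries, and fell by 0.49 on the log2 scale (adjusted p = 0.0115, edgeR). The immediate early genes were above supplemented ADX without passing the test, with log2 1.36 for Nr4a3 (adjusted p = 0.065), 1.01 for Fos (adjusted p = 0.251) and 0.97 for Egr1 (adjusted p = 0.165). The thalamus markers had a median of -0.62 in this comparison, with summed levels of 1049.1 and 565.6 CPM in 1 h acute libraries and 1267.3 and 1335.2 CPM in supplemented ADX libraries. Without the first 1 h acute library 662 genes were called, and without the second supplemented ADX library 0 were, with 871 at an unadjusted p under 0.05.

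Tissue taken 3 h after acute corticosterone was set against the 1 h libraries to ask whether the differences from sham at the 2 times were the same size. Of 12856 genes 3 differed (0.0233%), 1 higher (0.00778%) and 2 lower (0.0156%) at 3 h. Per1 was at 49.8 and 51.9 CPM in 3 h acute libraries, against 82.5 and 87.4 CPM in 1 h acute libraries, and was lower at 3 h by log2 -0.74 ± 0.08 (adjusted p = 0.00309, edgeR). The 3 h values lay just above both sham values. Hbb, a beta globin gene, was at 16.8 and 20.25 CPM in 3 h acute libraries, against 10.25 and 9.26 CPM in 1 h acute libraries (log2 0.91 ± 0.14; adjusted p = 0.0413, edgeR). Per2 was at 82.7 and 78.35 CPM in 3 h acute libraries, a difference of log2 -0.21 with an adjusted p of 0.178 (edgeR). The 3 h values of Nr4a3 were 9.20 and 9.08 CPM, against 23.2 and 25.95 CPM at 1 h (log2 -1.42; adjusted p = 0.103, edgeR). Fos was at 7.86 and 7.66 CPM at 3 h, against 21.55 and 24.9 CPM at 1 h (log2 -1.57; adjusted p = 0.233, edgeR), and Nr4a1 and Junb differed by log2 -1.08 and -0.78 (adjusted p = 0.0657 for each, edgeR). For these genes the 3 h and 1 h libraries did not overlap. The summed thalamus markers were 1016.1 and 957.2 CPM in 3 h acute libraries, values that lie between those of the 1 h acute libraries.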

How the data were processed

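Polyadenylated RNA of 12 libraries was sequenced on the Illumina HiSeq2000 from TruSeq RNA version 2 libraries, a kit that keeps no strand, per the labels. The submitters' processing notes name the build rn6, TopHat2 2.1.1, Cufflinks 2.2.1 and CASAVA 1.8.2, and the annotation is not given in the sources used here. The authors' deposited expected counts per gene are unscaled fragments, of which 0.751% (in 233 genes) held fractions and were rounded to whole numbers. The authors' FPKM values were not used, because Cuffdiff scaled sham and the acute groups in different runs, as the file headers show. The counts used here come from the same separate runs. A difference between runs in how fragments were assigned to genes therefore cannot be told apart from the difference between 1 h acute and sham.

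The fit used edgeR 4.0.16 in R 4.3.3: filterByExpr (minimum count 10, minimum total 15), TMM scaling and 1 robust quasi-likelihood model of the 6 groups, with 6 residual degrees of freedom. Tests were 2-sided with Benjamini-Hochberg adjustment over 12856 genes and a threshold of 0.05. A permutation of 4 libraries cannot give a p under 0.333. On simulated data of this comparison over 12856 genes the fit recovered 83% of 1.5-fold and 98% of 2-fold changes and called 17 unchanged genes. The 100 genes changed at each fold were drawn from those with a mean of at least 2 CPM. No fold under 1.5 was simulated, while the median size of the called log2 fold changes was 0.30. The simulation drew each gene independently and held no difference in regional tissue shared by many genes, unlike the libraries here. Its figures therefore do not cover calls that move with the thalamus markers.

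The rule for named genes took the 15 highest and 15 lowest called genes whose mean log2 CPM was 1 or more, the 5 genes with the smallest p in each of 28 lists, and a fixed set of hormone and stress genes. Named after their values were seen were Arntl, Cry1, Cry2, Dbp, Dlx1, Ecel1, Fam46a, Gpr101, Grm4, Hmx2, Homer1, Hspa1b, Jun, Klf6, Lhx9, Maff, Map3k13, Npas2, Npffr1, Nr4a2, Ntng1, Pcsk2, Rgs16, Rpl37a-ps1, Scg2, Slc17a6, Slc32a1, Sst, Trhde, Vipr2 and Zim1. Some genes are not reported here. Members and lists were chosen with earlier results of these data known. Alternatives were a stricter filter (a CPM of 1 in 4 libraries), no filter, RLE size factors, DESeq2 1.42.0, fits of the 4 libraries or of the 6 libraries of the acute groups' run, a replicate block, the thalamus score (mean log2 CPM of its markers, prior count 2) as a covariate, and each library left out. An anterior hypothalamus score and a crossed block were chosen after seeing the data.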

Additional observations from a re-analysis of the deposited data

Results flagged for a closer look

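Genes of the acute groups were marked for a closer look where the 3 h and the 1 h libraries differed by edgeR's quasi-likelihood test of that difference. Per1 differed by log2 -0.74, with 49.8 and 51.9 CPM in 3 h acute libraries and 82.5 and 87.4 CPM in 1 h acute libraries. Hbb differed by log2 0.91, with 16.8 and 20.25 CPM in 3 h acute libraries and 10.25 and 9.26 CPM in 1 h acute libraries. The hemoglobin genes as a list summed to 56.1 and 69.2 CPM in 3 h acute libraries and 34.7 and 28.6 CPM in 1 h acute libraries, and the part of blood in the tissue was not tested.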

How the results depend on the processing

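The count of 1641 called genes between 1 h acute and sham was 1689 with the stricter filter, 1555 with none, 1622 with RLE size factors and 1360 with DESeq2. It was 23 in the fit of the 4 libraries, 1 with the thalamus score and 3 with the anterior hypothalamus score (Oxt, Per1 and Sst; 741 at an unadjusted p under 0.05), and 138 to 2163 with 1 library left out. Against supplemented ADX the count of 6 was 76 with DESeq2, 16 without a filter, 18 in the 6 libraries of the run, 3 with a replicate block, 1 with the thalamus score, 2 with the anterior score and 0 to 662 with 1 library left out. Between 3 h and 1 h the count of 3 was 24 with DESeq2, 5 without a filter, 9 in the 4 libraries, 10 in the 6 libraries and 0 to 35 with 1 library left out. The cause was not tested.

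With the anterior score the log2 fold change turned to -0.35 for Onecut1, -0.0046 for Dlx5, -0.05 for Spred2, -0.21 for Gpr139, -0.11 for Lrrc55, -0.03 for Arnt2, -1.43 for Nr5a1, 0.31 for Otx2, 0.12 for Cox5a and 1.43 for Oxt. Dlx5 is itself among the markers that make up the anterior score. With the thalamus score the log2 fold change turned to 0.01 for RGD1560028, 0.01 for Rasd1 and 0.0026 for Rasd2. Of 108 named genes that were called, the thalamus score ended the call of 107, the anterior score also of 107, the fit of the 4 libraries of 99 and leaving out the second sham library of 85, and no setting other than these scores reversed a called value.

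A replicate block gave 1293 calls. Replicate numbers share no animal or day in the labels, and deviations of libraries with the same number correlated by -0.323 to 0.0929 over 15 pairs of groups, so they were not taken as pairs. For 1 h acute and sham, whose correlation was -0.323, crossed pairs gave 1512 calls. Depth differs by library, the second 1 h acute library having 17674161 fragments, and 2 libraries a group limit every test.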

Other observations

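Some genes that no list holds were called with all libraries and without each of the 4 in turn, among them Kcng1, Npffr1, Trhde and Pcsk2. Kcng1, a modifier subunit of potassium channels, had 11.3 and 12.7 CPM in 1 h acute libraries, against 5.81 and 6.48 CPM in sham libraries (log2 0.95 ± 0.12). Npffr1, a receptor for RFamide peptides, had 11.5 and 13.3 CPM in 1 h acute libraries, against 7.92 and 6.88 CPM in sham libraries. Trhde, which degrades thyrotropin-releasing hormone, had 61.3 and 65.3 CPM in 1 h acute libraries, against 47.5 and 40.25 CPM in sham libraries, and Pcsk2, a prohormone convertase, had 375.5 and 327.9 CPM in 1 h acute libraries, against 462.4 and 515.1 CPM in sham libraries. None of these 4 genes had overlapping groups, and Npffr1, Trhde and Pcsk2 were chosen after their values were seen. In the fit that held the thalamus score none of the 4 was called. The log2 fold changes of Kcng1, Npffr1, Trhde and Pcsk2 were 0.82, 0.40, 0.25 and -0.19 in it, against 0.95, 0.73, 0.53 and -0.47 without the score.

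Rpl37a-ps1, a pseudogene of a ribosomal protein gene, was listed at 10.2 and 8.37 CPM in 1 h acute libraries and at 0 in both sham libraries. It did not pass the test (adjusted p = 0.133, edgeR). Fragments of such a copy can be assigned to its parent gene, so the value is uncertain.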
